A study of Mus musculus with 3 samples.

Results

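The CC chemokine receptors are cell surface receptors that steer leukocytes between tissues, and 9 of them were followed here: Ccr1, Ccr2, Ccr3, Ccr4, Ccr6, Ccr7, Ccr8, Ccr9 and Ccr10. They were chosen by gene symbol in the GENCODE M21 annotation, as 9 of the 55536 genes in each deposited gene table, and not by their values. The material was polyadenylated RNA of mouse regulatory T cells (Tregs), CD4 T cells that hold immune responses in check and depend on the transcription factor Foxp3. They are labelled as having experienced inflammation, as derived from activated Tregs, and as taken at 12 weeks of age. The labels name 1 donor and 1 biosample, and number 3 libraries as its technical replicates, here libraries 1 to 3. All 3 form 1 group, so there is no untreated control and no contrast between conditions. The sources used here do not give the strain, any allele or transgene, the inflammatory treatment or the sorting gate, and the sex was not collected. Nothing says that the libraries came from separate animals, so every error below measures the spread between libraries labelled technical.

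Chemokine receptors cross the membrane with 7 helices and signal through inhibitory G proteins, which a bound chemokine switches on to turn a cell towards the source of that chemokine. Which receptors a T cell carries sets which tissues it can enter, as vessel walls and tissue cells display different ligands. Tregs use the same address system as the cells they restrain. A resting Treg that circulates through lymph nodes carries Ccr7, and Tregs that have met antigen gain receptors for skin, gut or inflamed tissue.

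The 8 members shown next share a coding signature that the choice by symbol did not use. Each of their coding sequences held a single aspartate-arginine-tyrosine triplet, the motif at the inner end of the third transmembrane helix through which these receptors couple to G proteins. The 27 coding bases that begin with it are shown because they let the family relation be read directly. The 3 motif codons are in capitals, 5′ to 3′ on the coding strand, from GENCODE M21 transcripts on mm10.
Ccr7 (chr11:99145612-99145638, minus strand): GACCGCTACgtagccatcgtccaggcc
Ccr6 (chr17:8256364-8256390, plus strand): GACCGGTACattgccatcgtccaggca
Ccr4 (chr9:114492570-114492596, minus strand): GACAGATACctggccatcgtgcacgcg
Ccr2 (chr9:124106132-124106158, plus strand): GATAGGTACttggctattgttcatgct
Ccr10 (chr11:101174268-101174294, minus strand): GACCGCTATgtggccatcgcacgagct
Ccr9 (chr9:123779681-123779707, plus strand): GACAGATACattgccattgtacaggcc
Ccr3 (chr9:124029029-124029055, plus strand): GACAGATACctggctatcgtccatgct
Ccr1 (chr9:123964078-123964104, minus strand): GACAGATACctggccattgtccatgct

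The motif began at residue 130 of the 355 that Ccr1 encodes and at residue 153 of the 378 of Ccr7, the shortest and the longest of the 8 proteins shown. Over whole coding sequences, the 36 pairs of members were 52.2 to 70.4% identical at aligned bases, with a median of 59.0%. Ccr1 and Ccr3 were the closest pair, and Ccr3 and Ccr10 the most distant. The longest exact stretch that any coding pair had in common was 47 bases, between Ccr3 and Ccr1. Of all 50-base stretches in their annotated transcripts, none recurred in another gene's transcripts for Ccr1, Ccr3, Ccr6, Ccr7, Ccr8 and Ccr10. The share was 0.465% for Ccr4, 1.91% for Ccr2 and 20.1% for Ccr9. The standard deviation of the count in the deposited gene tables, which measures how reads could be shared out, was 0 in all 3 libraries for Ccr1, Ccr3, Ccr6, Ccr7, Ccr8 and Ccr10, and was highest for Ccr9 in library 3, at 4.84 reads.

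Genes of the family lie close together on chromosome 9. On mm10, Ccr9 spans 123678439 to 123784330, Ccr1 123962124 to 123968692, Ccr3 124021972 to 124031689 and Ccr2 124101950 to 124113557, in this order. Ccr4 (114490316 to 114504916) and Ccr8 (120092114 to 120094906) lie elsewhere on the same chromosome. Ccr7 (99144196 to 99155077) and Ccr10 (101172997 to 101175443) lie on chromosome 11, and Ccr6 (8236043 to 8257141) on chromosome 17. Ccr1, Ccr4, Ccr7 and Ccr10 are on the minus strand. By mean TPM, Ccr9, Ccr3 and Ccr1 of this cluster were the lowest of the 9 members, while Ccr2 was the fifth highest, in the middle of the order. Only Ccr9 had exonic bases in common with other annotated genes. Of its 10260 exonic bases, 18.8% were shared with AC165425.1 and 0.214% with Slc6a20a on the other strand, and 2.62% with Gm17200 on the same strand. The strandedness of the libraries was not given in the sources used here, so the Ccr9 values are uncertain.

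The libraries held 35652707, 31665170 and 37810591 expected counts, read numbers that a model shares out among genes and that need not be whole. The 9 receptors took 20129, 17826 and 20040 of them. All 7 Treg markers were detected, with Foxp3 at 97.6 ± 1.04 TPM (SD, n = 3 libraries for this and all later errors) and Cd3e, a chain of the T cell receptor complex, at 1119 ± 28.7 TPM. TPM, a level scaled to library size and transcript length, allows levels of different genes to be set side by side. Library 3 stood apart through a list of 10 gland transcripts, taken from earlier results of these data, which held 5.88% of its TPM against 0.000507% and 0.00117% in libraries 1 and 2. A total shared with these transcripts lowers every other TPM of library 3. Tests and ratios between libraries below therefore use counts after TMM scaling (edgeR's trimmed mean method). TPM values and their sums are given as deposited, without this scaling.

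The receptors fell into 3 tiers, led by Ccr7 and Ccr8. Detection required 1 TPM or more in every library, and 8 of the 9 met it, where 23.2% of all genes and 47.6% of protein-coding genes did. Ccr7 and Ccr8 together made up 74.3, 80.2 and 79.9% of the summed TPM of the 9 receptors in libraries 1 to 3. Ccr6, Ccr4 and Ccr2 formed the middle tier at 26.9 to 43.9 TPM, and Ccr10, Ccr9, Ccr3 and Ccr1 the low tier at 0.623 to 4.30 TPM. In bulk RNA, a low level in many cells and a high level in few cannot be told apart.

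**Figure D1:**
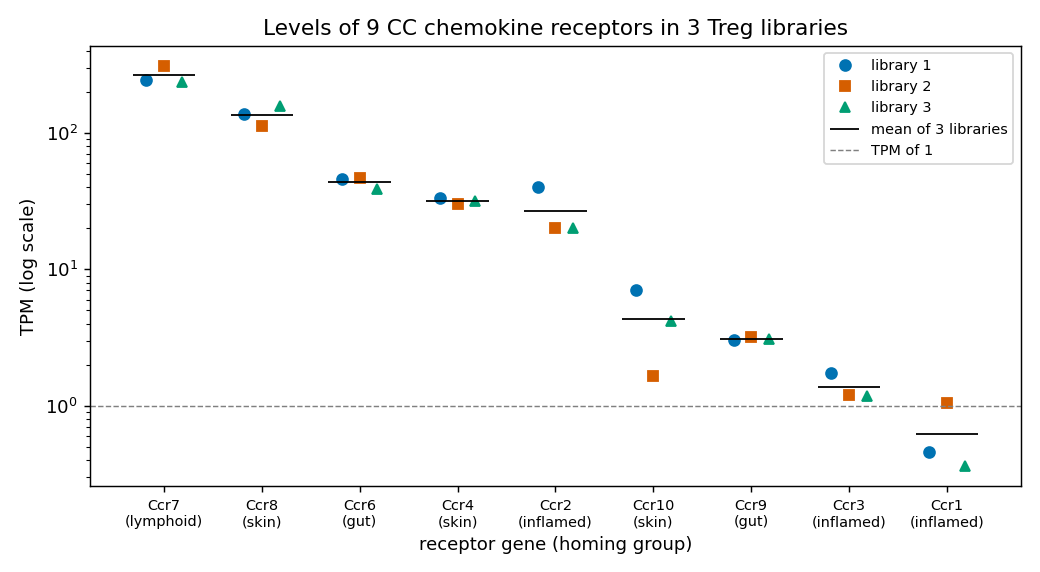
TPM of each receptor (log axis) in libraries 1 to 3 (symbols), with the mean of 3 libraries as a black line and a TPM of 1 as a dashed line. Ccr7 and Ccr8 lie above 100 TPM in every library, and Ccr1 crosses the dashed line in library 2 only.

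Ccr7, the lymphoid homing receptor, binds Ccl19 and Ccl21 and admits T cells to lymph nodes. Its TPM was 245, 310 and 236 in libraries 1 to 3, from 10433, 11594 and 10981 expected counts. Library 2 was high and the other libraries lay close together. The mean of 264 ± 40.0 TPM exceeded that of 97.6% of protein-coding genes.

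Ccr8 leads the skin group. It binds Ccl1 and, in the mouse, Ccl8, and marks T cells of skin and Tregs of effector type. Its TPM was 137, 112 and 157, from 3400, 2455 and 4260 counts, with library 2 low and library 3 high. The mean was 135 ± 22.4 TPM, above 94.2% of protein-coding genes. Ccr4, which binds Ccl17 and Ccl22 and serves skin homing, had 33.4, 30.3 and 31.5 TPM (mean 31.8 ± 1.57). In TPM it was the steadiest of the receptors above 5 TPM. By TMM-scaled counts Ccr6 was steadier, with a ratio of highest to lowest library of 1.11 against 1.20 for Ccr4. Ccr10, the receptor of Ccl27 and Ccl28 on skin T cells and on antibody-secreting cells, was low and uneven. It had 261, 54 and 169 counts, or 7.05, 1.66 and 4.18 TPM, with library 2 lowest.

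Ccr6 leads the gut group. It binds Ccl20, guides cells into Peyer's patches and inflamed mucosa, and is also a receptor of B cells. Its TPM was 46.3, 46.6 and 38.7, with a mean of 43.9 ± 4.46. Ccr9, which binds Ccl25 of the small intestine and thymus, stood far lower, at 3.04, 3.21 and 3.07 TPM (mean 3.11 ± 0.0907). It had the smallest spread of the 9, with a coefficient of variation of 2.92%.

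Among receptors of inflamed tissue, Ccr2 was the only one well above 1 TPM. Ccr2 binds Ccl2, Ccl7 and Ccl12 and is best known from monocytes leaving the bone marrow, though activated T cells carry it too. It had 40.2 TPM in library 1 against 20.2 and 20.2 TPM in libraries 2 and 3, so its mean of 26.9 ± 11.6 TPM describes no single library. Ccr3, the eotaxin receptor of eosinophils, stood at 1.73, 1.20 and 1.17 TPM. Ccr1, a receptor of Ccl3 and Ccl5 on neutrophils and monocytes, had 28, 57 and 24 counts, or 0.460, 1.05 and 0.360 TPM. The deposited bounds around its posterior mean TPM were 0.289 to 0.607 in library 1, 0.747 to 1.25 in library 2 and 0.221 to 0.492 in library 3. Library 2 thus lay above the bounds of the others, and the receptor missed detection through libraries 1 and 3.

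The order of mean levels was Ccr7, Ccr8, Ccr6, Ccr4, Ccr2, Ccr10, Ccr9, Ccr3 and Ccr1. Of the 8 neighbours in that order, 5 were apart, meaning that the difference had 1 sign, with no overlap of their ranges over libraries or of their deposited TPM bounds within any library. Ccr7 exceeded Ccr8 by 0.96 ± 0.45 in log2(TPM + 1), a 1.95-fold ratio of means. Ccr8 exceeded Ccr6 by 1.60 ± 0.37, Ccr6 exceeded Ccr4 by 0.45 ± 0.16, Ccr2 exceeded Ccr10 by 2.46 ± 0.49 and Ccr9 exceeded Ccr3 by 0.80 ± 0.21. Ccr4 and Ccr2 were not apart, with differences of -0.26, 0.56 and 0.62 in libraries 1 to 3. Nor were Ccr10 and Ccr9, where library 2 had the other sign (0.99, -0.66 and 0.35), or Ccr3 and Ccr1, which nearly met in library 2 (0.90, 0.10 and 0.67). Over all 36 pairs of members, 30 were apart. With 3 libraries, the exact permutation of signs (two-sided) cannot go below p = 0.25, so no pair could pass 0.05.

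Summed by homing group, lymphoid exceeded skin and skin exceeded gut. Gut exceeded inflamed tissue within each library, though their TPM ranges over libraries overlapped. Their shares of the summed TPM did not overlap, at 8.48 to 9.60% for gut and 4.27 to 8.25% for inflamed tissue. The lymphoid group, Ccr7 alone, had 51.5 ± 6.37% of the summed TPM of the 9 receptors. The skin group had 177, 144 and 193 TPM, or 33.7 ± 5.90%, nearly all of it Ccr8 and Ccr4. The gut group had 49.4, 49.8 and 41.8 TPM, or 9.18 ± 0.608%, and the inflamed tissue group 42.4, 22.5 and 21.7 TPM, or 5.64 ± 2.26%. The place of Ccr6 decides the order of the lower groups. Counted with inflamed tissue, it leaves 0.608% for gut and brings inflamed tissue to 14.2%. In the older deposited counts per kilobase of all exonic bases in M21, skin led with 52.6% and lymphoid had 33.7%.

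**Figure D2:**
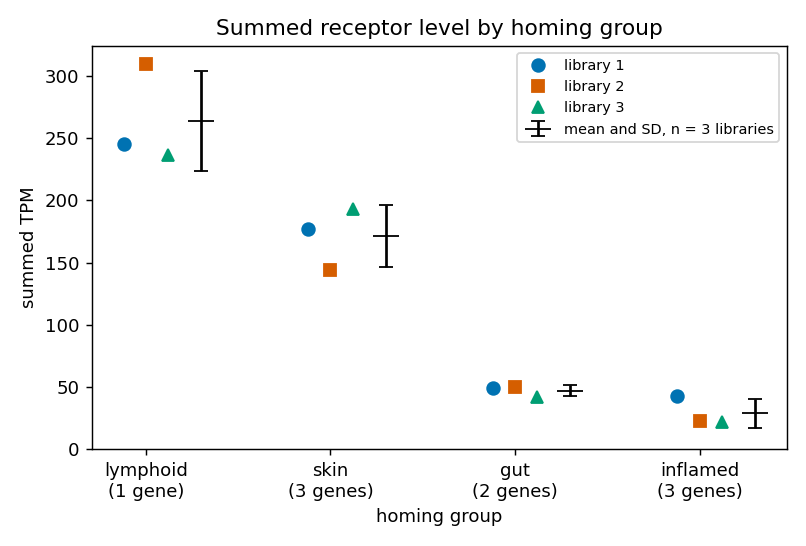
Summed TPM of the receptors of each homing group in libraries 1 to 3 (symbols), with mean and SD over the 3 libraries in black. Library 2 is highest for lymphoid (310 TPM) and lowest for skin (144 TPM).

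The libraries differed in which receptors they favoured. A chi-square test of TMM-scaled counts against Poisson noise, with Benjamini-Hochberg adjustment over all genes tested, called 7 of the 9 members different between libraries. It called 77.2% of the 18253 genes tested, so this share is near the background and says nothing particular of the family. The test treats reads as independent molecules, compares these libraries and no conditions, and covers counting error only. Ccr6 and Ccr9 did not pass, with adjusted p of 0.0519 and 0.660. By mean count, it called 84.8% of genes at 1000 or more, where Ccr7, Ccr8, Ccr6, Ccr4 and Ccr2 lie, 79.2% from 100 to under 1000 (Ccr10 and Ccr9) and 68.8% from 10 to under 100 (Ccr3 and Ccr1). The highest library exceeded the lowest 2 times or more for 3 members, Ccr10 (4.17), Ccr1 (2.75) and Ccr2 (2.03), against 29.6% of genes. In the same 3 ranges of mean count, such a ratio was met by 0.475% of genes (the range of Ccr2), 12.7% (Ccr10) and 68.1% (Ccr1). Without library 2, no member reached it.

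Between single pairs of libraries, 5 members were called higher and 2 lower in library 1 than in library 2, where 29.6 and 31.2% of genes were, 60.9% in all. Against library 3, library 1 was higher for 3 members and lower for 2, beside 23.1 and 26.0% of genes, 49.1% in all. Library 2 was higher than library 3 for 2 members and lower for 4, beside 29.1 and 28.6% of genes, 57.7% in all. No member was called lowest in library 3 against both others, where 9.65% of genes were.

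Library 2 held more Ccr7 and Ccr1 and less Ccr8, Ccr4, Ccr10 and Ccr2 than both other libraries. It was called highest against both others for 2 members, where 21.9% of genes were, and lowest for 4, where 17.8% were. The call of Ccr2 against library 3 was borderline. Its log2 ratio of library 2 to library 3 was -0.12 (adjusted p = 0.0436 by the pairwise chi-square test), and its TPM was 20.2 in both. For Ccr7 the log2 ratio of library 1 to library 2 was -0.36 (adjusted p = 2.52e-76 by the pairwise chi-square test), and that of library 2 to library 3 was 0.29. Ccr8 was 0.26 higher in library 1 than in library 2 and 0.58 lower in library 2 than in library 3 (adjusted p = 1.73e-55). Ccr4 followed Ccr8, 0.19 higher in library 1 than in library 2, and with a log2 ratio of library 2 to library 3 of -0.26. Without library 2 its call was lost (adjusted p = 0.289), as it was in the older deposited counts (0.0913). Ccr10 showed the widest gap, a log2 ratio of library 1 to library 2 of 2.06 and of library 2 to library 3 of -1.43. The TPM of Ccr7 was 1.79, 2.76 and 1.50 times that of Ccr8 in libraries 1 to 3. Ccr1 went with Ccr7, with a log2 ratio of library 1 to library 2 of -1.24, on 57 counts at most, and its call was lost without library 2 (adjusted p = 0.672).

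Library 1 was called highest against both others for Ccr2 and Ccr10, where 15.4% of genes were. Ccr2 was 1.02 higher on the log2 scale than in library 2 and 0.90 higher than in library 3. In the older counts these gaps were 0.76 and 0.66. Ccr3 was 0.50 higher in library 1 than in library 2, and its overall call, at adjusted p = 0.0318, was lost without library 1 (0.820) and without library 2 (0.0566). Library 1 was called lowest for Ccr7, with 15.4% of genes in that place, and library 3 highest for Ccr8, with 13.8%.

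**Figure D3:**
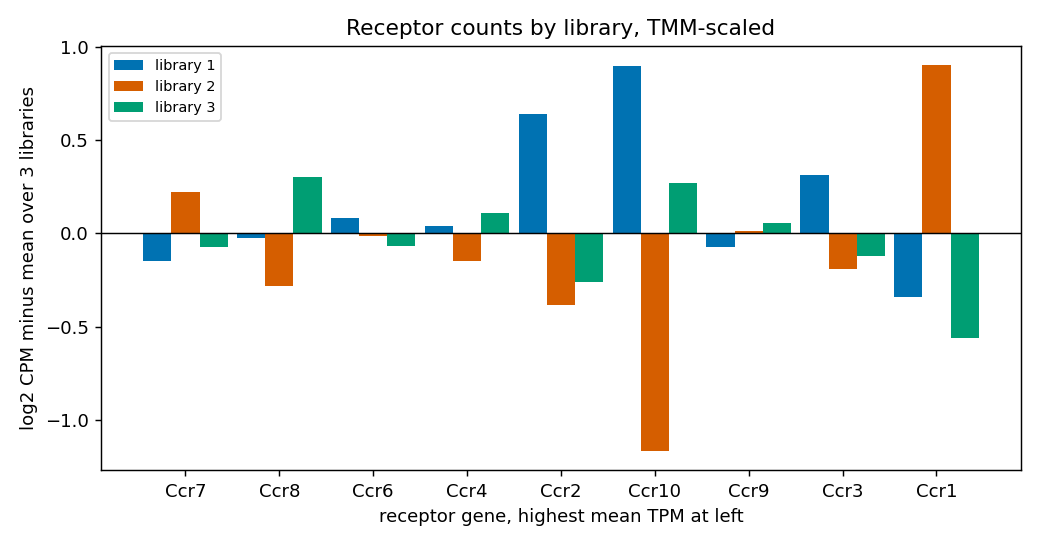
Log2 TMM-scaled CPM (counts relative to library size) of each receptor minus its mean over the 3 libraries, by library (bar colour). Library 2 lies above 0 for Ccr7 and Ccr1 and below 0 for Ccr8, Ccr4, Ccr2 and Ccr10, while Ccr6 and Ccr9 stay close to 0 in each library.

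Markers of other cells that carry these receptors were measured beside them. Plasma cell markers, none of 4 detected, summed to 4.21, 0.380 and 2.42 TPM in libraries 1 to 3, in the same order as Ccr10. The 4 markers did not move together: Jchain had 58, 0 and 11 counts, Tnfrsf17 9, 0 and 0, Mzb1 29, 6 and 29, and Sdc1 3, 1 and 44. Their part in the Ccr10 values was not tested. Monocyte and macrophage markers, 1 of 7 detected, summed to 6.44, 7.22 and 8.63 TPM, most of it Ly6c2 (4.17, 6.37 and 5.50 TPM). Itgam, with 32, 1 and 17 counts, was highest in library 1 and lowest in library 2, as Ccr2 was, while Lyz2 and Csf1r were lowest in library 2 and highest in library 3. S100a8 and S100a9 had at most 2 counts in any library. The part of these cells in the Ccr2 and Ccr1 values was not tested. Eosinophil and basophil markers, none of 5 detected, summed to 0.590, 0.0200 and 0.450 TPM. They were led by Il5ra with 34, 1 and 10 counts, which like Ccr3 was highest in library 1 and lowest in library 2. Prg2 had 0 counts in every library, and Siglecf and Epx 1 count each in library 3 only, while Ccr3 had 123, 75 and 91. Their part in the Ccr3 values was not tested. B cell markers, 4 of 5 detected, summed to 55.6, 61.0 and 53.8 TPM, led by Cd79b at 30.4 TPM. B cells carry Ccr6 and Ccr7, and the part of these cells in both values was not tested. Dendritic cell markers, 1 of 5 detected, summed to 7.93, 4.38 and 2.58 TPM, most of it Zbtb46 (7.09, 3.75 and 1.79 TPM). Flt3 (0.120, 0.240 and 0.180 TPM) and Itgax (0.0100, 0.340 and 0.0300 TPM) had their highest TPM in library 2, as Ccr7 did. Flt3 was not called different between libraries (adjusted p = 0.189 by the chi-square test over 3 libraries). Itgax had at most 3 counts, and by TMM-scaled count it was highest in library 3. Xcr1, with 54, 4 and 21 counts, and Siglech, with 7, 0 and 19, were lowest in library 2. The part of dendritic cells in the Ccr7 values was not tested. The CD8 and NK cell markers, 1 of 4 detected, summed to 3.83, 6.03 and 3.80 TPM.

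Ligands of the receptors were mostly low in these cells. Of 19 ligand genes, 4 were detected, and the median was 0.120 TPM. Ccl5, which binds Ccr1 among others, had 72.5, 144 and 98.6 TPM and was highest in library 2, as Ccr1 was. Ccl1, the ligand of Ccr8, had 16.0, 4.87 and 1.87 TPM, in another order than Ccr8. Ccl25, the ligand of Ccr9, stood at 11.1 ± 3.22 TPM and Ccl27a, a ligand of Ccr10, at 7.50 ± 1.38 TPM. Both values are uncertain, since 2.74% of the exonic bases of Ccl25 are also annotated to Elavl1, 0.337% of those of Ccl27a to Il11ra1, and Ccl27a belongs to a set of near-identical copies. Ccl17, a ligand of Ccr4, and Ccl8 had 0 counts throughout, so that up to 3 counts per library remain possible by counting error alone. Of the Ccr7 ligands, Ccl19 had 2, 0 and 0 counts. Ccl21a, which also has near-identical copies and so is uncertain, had 0, 28.6 and 8 counts and was highest in library 2, as Ccr7 was (adjusted p = 1.50e-09 by the chi-square test over 3 libraries). The Ccr6 ligand Ccl20 had 1, 0 and 0 counts.

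The machinery that carries the receptor signal was abundant. Of 13 genes for G protein subunits and the enzymes and GTPases that they act on, 12 were detected, with a median of 137 TPM. Rac2, which drives actin at the leading edge, stood at 2282 ± 104 TPM, and Gnai2, the main inhibitory G protein subunit of lymphocytes, at 617 ± 22.2 TPM. Rap1b, which activates integrins, had 373 ± 32.6 TPM and Dock2, which activates Rac, 362 ± 19.0 TPM. Gnai1, a relative of Gnai2, was not detected (1, 0 and 10 counts). All 8 genes that end receptor signalling were detected, with a median of 196 TPM. They were led by the G protein inactivators Rgs1 at 411 ± 33.0 TPM and Rgs10 at 275.6 ± 29.0 TPM, the receptor kinase Grk6 at 249 ± 19.8 TPM and the arrestin Arrb2 at 211 ± 7.11 TPM. Of these 2 lists, 11 of 12 and 8 of 8 genes tested were called different between libraries, beside the 77.2% of all genes. The gaps differed between genes. For Rac2 the log2 ratio of library 2 to library 3 was 0.04, and for Rgs16, which inactivates G proteins, it was -0.64.

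Genes that work with the receptors in homing were all detected, 12 of 12, with a median of 262 TPM. On the lymphoid side, S1pr1 (the exit receptor) had 209, 299 and 219 TPM, and its activator Klf2 281, 410 and 289. Both were highest in library 2, as Ccr7 was, with log2 ratios of -0.54 and -0.57 for library 1 over library 2. Over the list, 4, 5 and 3 genes were highest and 5, 3 and 4 lowest in libraries 1 to 3 by TMM-scaled count. The same counts over all genes were not made. Itgae, which holds T cells to epithelium, had 115, 68.7 and 107 TPM and was lowest in library 2. The 3 libraries are too few points for a measure of likeness between genes. Selplg, the selectin ligand used for skin entry, had 759, 791 and 688 TPM, and Itgb7, the integrin chain used for gut entry, 1053, 1138 and 1054 TPM. Both were highest in library 2.

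The upstream sequences of Ccr8 and Ccr4 are shown because these skin receptors were low in the same library, library 2. Of genes tested, 17.8% were called lowest there. Ccr10 and Ccr2 were lowest there too, but no window was found for Ccr10, and that of Ccr2, outside the skin group, is not shown. The sequences are the 250 bases before the RefSeq start on GRCm38.p6, 5′ to 3′ on the gene's strand. Capitals mark matches, on either strand, to GATAA (the core letters bound by GATA factors), TGANTCA (AP-1), GGAAA (NFAT) or TGTTTAC (forkhead factors).
Ccr8 (chr9:120091883-120092132, plus strand): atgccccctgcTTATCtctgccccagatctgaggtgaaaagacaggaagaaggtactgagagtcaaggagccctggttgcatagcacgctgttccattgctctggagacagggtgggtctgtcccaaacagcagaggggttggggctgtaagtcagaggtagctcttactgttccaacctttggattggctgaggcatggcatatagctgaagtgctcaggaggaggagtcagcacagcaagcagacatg
Ccr4 (chr9:114496545-114496794, minus strand): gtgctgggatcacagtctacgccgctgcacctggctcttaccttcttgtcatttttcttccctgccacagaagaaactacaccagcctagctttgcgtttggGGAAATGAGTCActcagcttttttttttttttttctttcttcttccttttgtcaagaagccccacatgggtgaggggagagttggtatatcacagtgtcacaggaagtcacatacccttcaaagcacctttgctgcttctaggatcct

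The Ccr8 window held 1 match to GATAA and none to the other motifs. The Ccr4 window held 1 match to GGAAA and 1 to TGANTCA, which touch without overlapping, and none to GATAA or TGTTTAC. Over 32851 windows of the same length in the table, GATAA was found in 22.6%, TGANTCA in 6.75%, GGAAA in 55.6% and TGTTTAC in 3.17%. The letters matched differ between the 2 windows, and a match is no proof of binding.

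Ccr4, Ccr6, Ccr2 and Ccr9 have several annotated transcripts, whose shares are model estimates from reads that the transcripts have in common. Ccr1, Ccr3, Ccr7, Ccr8 and Ccr10 have 1 each. Ccr4 was divided between Ccr4-201 (47.9 ± 5.26%) and the shorter Ccr4-202 (52.1 ± 5.26%), both of which encode the full receptor. Ccr2 was led by Ccr2-202, a model with 1 exon, at 54.9, 46.8 and 47.4%, followed by Ccr2-201 with 3 exons at 25.8, 44.5 and 35.5%. In TPM, the excess of Ccr2 in library 1 was mostly in Ccr2-202 (22.1, 9.47 and 9.55 TPM), while Ccr2-201 had 10.4, 8.99 and 7.15 TPM. Ccr6 had 9 annotated transcripts, and its leading ones changed places between libraries: Ccr6-202 took 42.9, 18.4 and 36.8% and Ccr6-204 12.2, 36.2 and 29.6%. Both encode the full receptor from 1 coding exon and differ in their annotated start. Ccr6-207, whose annotated coding part is only 144 bases, took 14.9 ± 2.65%. Ccr9 was led by Ccr9-201 at 75.4, 62.6 and 60.4%, which fell to a mean of 50.1% when shares were taken from posterior mean TPM. The transcripts Ccr9-202 and Ccr9-205 were listed at 0 TPM in all 3 libraries.

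**Figure D4:**
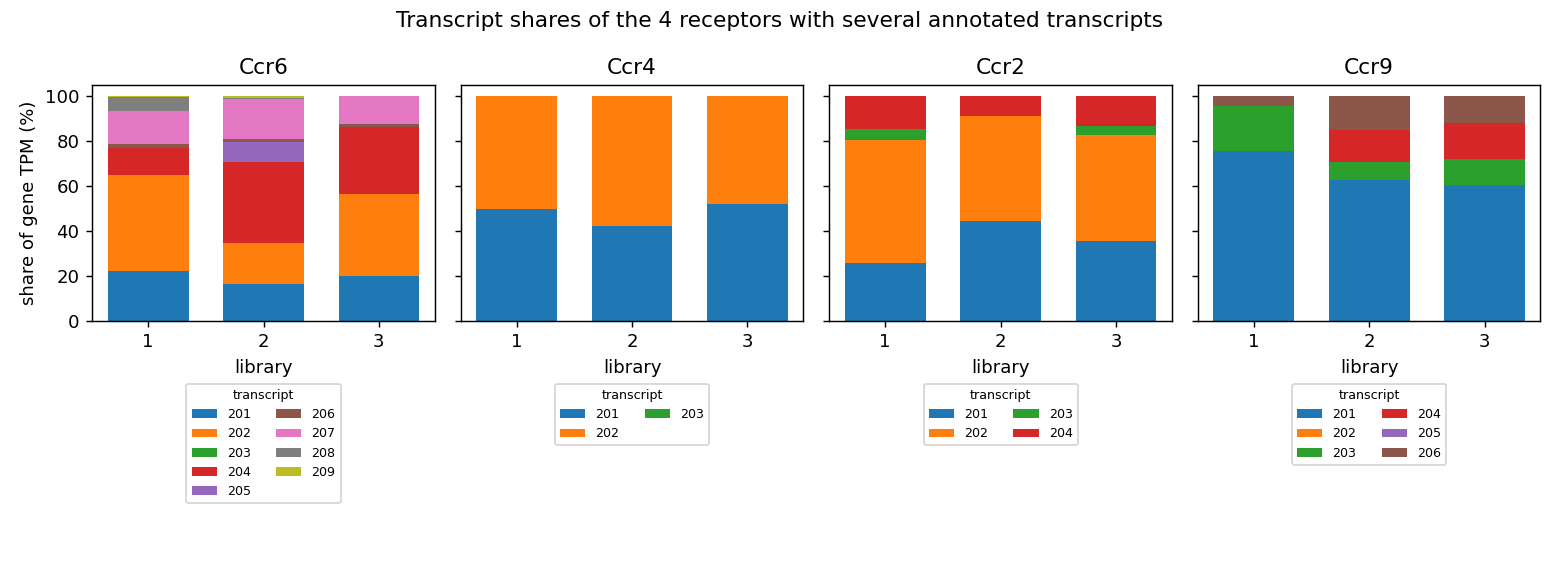
Share of the gene's TPM (%) that each annotated transcript took in libraries 1 to 3, for Ccr6, Ccr4, Ccr2 and Ccr9. Ccr6-202 drops to 18.4% in library 2, where Ccr6-204 reaches 36.2%.

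The older deposited table, with whole-number counts per gene on annotation M4, kept Ccr7 and Ccr8 highest. Distances changed in this table, and per kilobase of exon places changed too. Ccr7 had 2047, 2076 and 2073 counts there, 5.33 times fewer than in the M21 table, while Ccr10 had 193, 39 and 123, 1.36 times fewer. The median over genes rose from 1.91 times at mean M21 counts of 100 to under 1000 to 7.52 times at 10000 and more, so Ccr7 shared its compression with other abundant genes. Per kilobase of exon, Ccr8 came out above Ccr7 in this table, with Ccr7 minus Ccr8 at -0.37 on the log2 scale. Lengths for this measure were all exonic bases of a gene in M21, 6760 for Ccr2 and 10260 for Ccr9. Their leading transcripts Ccr2-202 and Ccr9-201 have 3515 and 2620 bases. Ccr2 and Ccr10 nearly met by this measure, at a mean of 74.3 and 68.6 counts per kilobase. Their log2 difference was 0.27 in place of 2.46, so the middle and low tiers were not separate by it. Undivided, Ccr2 had 690, 374 and 442 counts, above Ccr10 in every library. By the same measure Ccr10 minus Ccr9 was 2.05 in place of 0.23, and 6 members were detected in place of 8. Ccr9 (6.89 counts per kilobase) was lowest beside Ccr1 (7.18). Undivided, Ccr9 had 74, 70 and 68 counts, above Ccr3 (51, 23 and 33) and Ccr1 (11, 37 and 13). The highest and the lowest library were the same in both tables for 6 members. Ccr7 was highest in library 2 and lowest in library 1. In the older table its libraries 1 and 3 were nearly equal, with a log2 ratio of -0.0028. Ccr8 and Ccr4 were highest in library 3 and lowest in library 2, and Ccr10, Ccr2 and Ccr3 were highest in library 1 and lowest in library 2. For the other members 1 or both ends moved: the lowest library went from 3 to 2 for Ccr6 and from 3 to 1 for Ccr1, and Ccr9 was highest in library 3 and lowest in library 1 in the M21 table but highest in library 2 and lowest in library 3 in the older one. The gap of Ccr7 between libraries 1 and 2 narrowed to 0.15 on the log2 scale, and that of Ccr10 was 2.18.

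**Figure D5:**
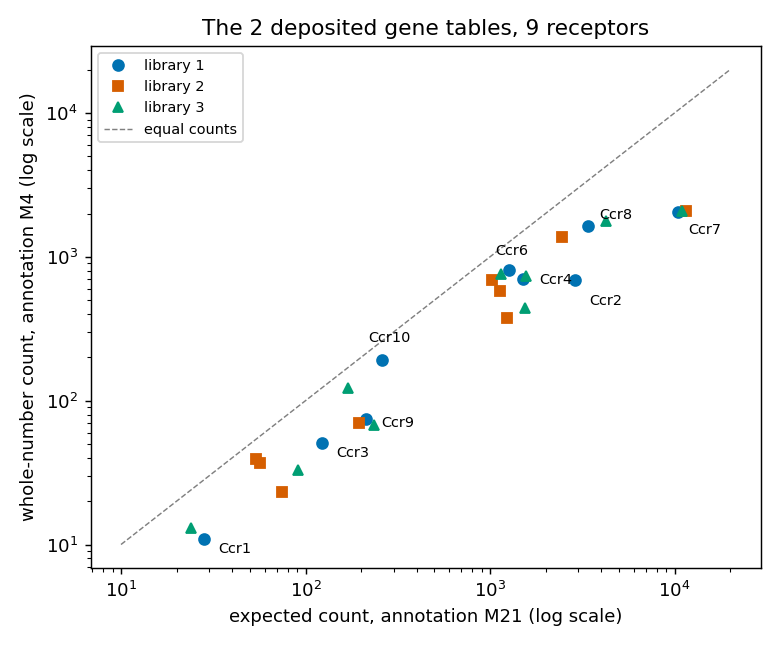
Expected count on annotation M21 against whole-number count on annotation M4 (both log axes) for the 9 receptors in libraries 1 to 3, with equal counts as a dashed line. Ccr7 lies farthest below the line, and Ccr10 close to it.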

How the data were processed

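RNA-seq of 3 libraries of 1 biosample was deposited as gene and transcript tables on mm10. Per the file headers, the authors' M21 tables hold expected counts, posterior mean counts, TPM, FPKM, TPM bounds of unstated level around the posterior mean (a signal in TPM units), and the percent of each gene's TPM per transcript. Of 27 member TPM values, 10 lay above the upper bound, so bounds are used only with each other. Deposited M4 tables hold whole-number counts. Aligner, counter and duplicate handling: not given in the sources used here.

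Rows that name no gene (0.170, 0.170 and 0.218% of expected counts) were left out of scaling. Expected counts were rounded and scaled with TMM (edgeR 4.0.16, R 4.3.3) or, as an alternative, size factors (DESeq2 1.42.0). The chi-square test covered genes averaging 10 counts or more and was tested on simulated data. The simulated counts had Poisson noise only, so they cannot show how the test behaves where libraries vary more. Homing groups were lymphoid (Ccr7), skin (Ccr4, Ccr8, Ccr10), gut (Ccr6, Ccr9) and inflamed tissue (Ccr1, Ccr2, Ccr3). Genes set out for naming were all members, all Treg markers, and of each other list the 4 highest and those at 0. Not all of them are named in the text, and Itgax was named outside this rule. S100a8, S100a9, S1pr1, Klf2, Itgae, Ccl19, Ccl20, Ccl21a, Rgs16 and Gnai1 were named after their values were seen. 1 coding stretch and 1 gene of the homing partner list are not reported here. Members and lists were chosen with earlier results of these data known. Python 3.11.15, pandas 2.3.3, scipy 1.17.1 and biopython 1.88 were used.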

Additional observations from a re-analysis of the deposited data

How the results depend on the processing

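No paired analysis was possible because all 3 libraries form 1 group. Without a library in turn, members with a ratio of at least 2 ranged from 0 to 3. At a TPM of at least 5, 5 members were detected. In M4 counts per kilobase of all exonic bases in M21, group shares were 33.7% lymphoid, 52.6% skin, 10.7% gut and 2.96% inflamed tissue. By the same measure Ccr7 minus Ccr8 was -0.37 and Ccr9 minus Ccr3 -0.29 (log2). Undivided M4 counts of Ccr9 were above those of Ccr3 in every library. Without length correction, skin was 25.4%, gut 7.05% and inflamed tissue 10.4%, and Ccr6 minus Ccr4 (-0.27), Ccr4 minus Ccr2 (-0.34) and Ccr10 minus Ccr9 (-0.52) turned around. With Ccr6 moved, gut was 0.608% and inflamed tissue 14.2%. Without a library in turn, Ccr10 minus Ccr9 ranged from -0.16 to 0.67. Ccr9-201 took 50.1% from posterior means. Ccr6 passed the chi-square test with DESeq2 size factors (adjusted p = 0.0446), a minimum mean count of 50 (0.0493), unscaled totals (0.000722) or without library 2 (0.0284). The cause was not tested. The depth leaves Ccr1 and Ccr3 on 24 to 123 counts, where gaps are least certain.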
